A study of Mus musculus with 18 samples.

Results

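Expression of the genes of the BCL2 family and of the initiator caspases was read from oligonucleotide arrays of mouse liver tumours and normal liver. The genes were Bcl2, Bcl2l1, Mcl1, Bcl2l11, Bmf, Bid, Bax, Casp8 and Casp9, and every probe set whose annotation gives 1 of these symbols was taken. Of the 9 genes 8 had probe sets in the annotation used, 30 of the 45101 on the array, and Bax was not analysed here. The study concerns liver cancer (hepatocellular carcinoma) and what Tlr4, which senses bacterial lipopolysaccharide, and gut bacteria contribute to it. It holds 18 samples of male mice on the C3H background. The Tlr4-mutant tumours (5 samples, numbered 23 to 27) came from C3H/HeJ mice, whose Tlr4 carries the P712H change, at 54 weeks of age. The antibiotic tumours (3 samples, 28 to 30) came from C3H/HeOuJ mice, wild type (WT) for Tlr4, that drank ampicillin, neomycin and metronidazole at 1 g/l each and vancomycin at 500 mg/l from week 10 to week 54. The WT tumours (7 samples, 16 to 22) came from C3H/HeOuJ mice at 54 weeks without antibiotics. All 3 tumour groups had been given 100 mg/kg diethylnitrosamine, a liver carcinogen, in week 12 and 6 injections of 0.5 ml/kg CCl4, a hepatotoxin, between weeks 13 and 23. The normal livers (3 samples, 1 to 3) came from untreated C3H/HeOuJ mice of 15 weeks. Age, carcinogen and tumour therefore cannot be told apart in a comparison with normal liver, and in the mutant comparison Tlr4 cannot be told apart from any other difference of the substrains C3H/HeJ and C3H/HeOuJ. The labels do not say whether each sample is a different mouse, and the p-values then speak only for the spread among the samples at hand, part of which may be technical.

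The proteins of this family set whether a cell opens its outer mitochondrial membrane and dies. BCL2, BCL-XL (the product of Bcl2l1) and MCL1 keep the membrane closed, and BH3-only proteins such as BIM (Bcl2l11), BMF and BID bind them and release or activate the pore formers BAX and BAK. Cytochrome c from the opened mitochondria joins APAF1 and activates caspase 9, whereas caspase 8 is activated at death receptors and cleaves BID. In mouse hepatocytes loss of BCL-XL or of MCL1 is enough to cause spontaneous apoptosis, and BID is needed for efficient killing through Fas. These proteins are also controlled by phosphorylation, cleavage and turnover, which an mRNA array does not measure.

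Bmf, Bcl2 and Bcl2l11 had the largest fitted differences between tumours and normal liver among the members, so the promoter windows of these 3 genes are shown. Each window holds the 300 bases from 250 before to 50 after the start of the outermost RefSeq transcript (build GRCm38.p6), read 5′ to 3′ on the strand of the gene. Bmf lies on the minus strand at chr2:118549637-118549936, Bcl2 on the minus strand at chr1:106714241-106714540, and Bcl2l11 on the plus strand at chr2:128125788-128126087. Capitals mark matches to the motifs searched.
Bmf: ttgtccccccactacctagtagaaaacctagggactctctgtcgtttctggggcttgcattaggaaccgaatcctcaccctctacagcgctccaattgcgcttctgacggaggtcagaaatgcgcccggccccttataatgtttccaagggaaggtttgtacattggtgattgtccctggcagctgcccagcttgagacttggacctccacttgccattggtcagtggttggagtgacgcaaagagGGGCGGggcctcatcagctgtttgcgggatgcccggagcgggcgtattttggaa
Bcl2: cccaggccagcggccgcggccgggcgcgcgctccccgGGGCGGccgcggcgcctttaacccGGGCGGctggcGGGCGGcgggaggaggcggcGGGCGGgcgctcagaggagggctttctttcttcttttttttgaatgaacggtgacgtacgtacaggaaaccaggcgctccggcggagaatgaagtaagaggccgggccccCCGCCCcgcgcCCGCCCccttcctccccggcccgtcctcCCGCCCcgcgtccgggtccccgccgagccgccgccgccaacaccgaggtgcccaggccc
Bcl2l11: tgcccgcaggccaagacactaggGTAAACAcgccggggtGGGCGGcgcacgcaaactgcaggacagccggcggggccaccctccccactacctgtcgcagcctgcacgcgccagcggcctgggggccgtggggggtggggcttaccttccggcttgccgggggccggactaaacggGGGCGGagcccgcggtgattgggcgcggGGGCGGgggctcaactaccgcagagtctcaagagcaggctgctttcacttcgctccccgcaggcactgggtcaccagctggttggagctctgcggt

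The motifs were searched on both strands as exact letters. The GC box (GGGCGG) was found 1 time in the Bmf window, 7 times in the Bcl2 window and 3 times in the Bcl2l11 window, and 35.66% of the 32851 RefSeq windows of this length hold at least 1. The FOXO motif (GTAAACA) was found 1 time, in the Bcl2l11 window, and 3.65% of all windows hold it. The AP-1 motif (TGANTCA, in 7.81% of all windows), the CRE (TGACGTCA, 1.79%), the E-box (CACGTG, 7.15%), the STAT motif (TTCNNNGAA, 8.30%) and the TATA box (TATAAA, 13.62%) had no match in these 3 windows. The windows differed in base composition, with 55.3% G and C for Bmf, 76.0% for Bcl2 and 71.0% for Bcl2l11, against a median of 52.7% over all windows.

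The arrays differed little in overall signal, with medians of 6.69 to 6.85 (log2) over the probe sets kept. WT tumours 17 and 19 stood apart from the rest on the second principal component, and results that involve WT tumours are therefore also given without both where this changes the call. For Gapdh, the signal at the 3′ end minus that at the 5′ end, which reads RNA integrity and labelling, was 0.66 ± 0.24 in mutant, 0.40 ± 0.13 in antibiotic and 0.42 ± 0.15 in WT tumours, against 1.52 ± 0.13 in normal livers (log2, SD). It moved with the difference between tumour and normal liver, and its part in the results was not tested. Tlr4 itself was below log2 4, the level taken here as background, on all 18 arrays, and since P712H changes 1 residue its level would not check the labels. All 6 hepatocyte markers measured were above log2 4 on every array, and the tumour markers Afp and Gpc3 were higher in all 3 tumour groups than in normal liver. All 6 T and NK cell markers measured, and Cd79a, Cd79b and Ms4a1 among the 4 B and plasma cell markers, were below log2 4 on every array. The other marker of that list, Jchain, was above log2 4 on 13 arrays and rose in mutant tumours, at a mean of 7.36, against 3.73 in normal livers. The neutrophil markers S100a8 and S100a9 rose in mutant and WT tumours, and Csf3r and Ngp stayed below log2 4. The summed neutrophil signal (log2) ranged from 7.16 to 9.25 in mutant, 4.98 to 6.98 in antibiotic and 5.09 to 8.32 in WT tumours, against 4.42 to 4.599 in normal livers. In normal livers this sum holds only values below log2 4. Of the 6 macrophage markers tested 1 rose, in WT tumours. Gpc3, S100a8, S100a9 and the macrophage marker Cd68 were below log2 4 in all normal livers. They passed the filter on low values only through the tumours, so any call for them is a description and no support. In bulk tissue, fewer cells of a type and less RNA per cell cannot be told apart.

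Bcl2 and Mcl1 among the survival genes and Bcl2l11 and Bmf among the BH3-only genes changed between tumour and normal liver in at least 2 of the 3 tumour groups. Bcl2, Mcl1 and Bcl2l11 were higher in tumours, and Bmf was lower. Bcl2 passed the filter on low values only through the tumours, so its calls are a description and no support, and the counts below include it. Casp9 was lower in WT tumours, and Bcl2l1, Bid and Casp8 did not pass the test in any tumour group. In WT tumours 5 of the 8 tested members changed at an adjusted p under 0.05, where 39.0% of the 9053 genes tested did. Of the members 3 rose and 2 fell there, against 18.8% and 20.2% of all genes. In mutant tumours 22.3% of all genes changed, 11.7% upward and 10.5% downward, and of the members 2 rose and 1 fell. In antibiotic tumours 15.0% of all genes changed, 8.11% upward and 6.91% downward, and of the members 2 rose and 1 fell. The median log2 difference of the 8 members was 0.50 in mutant, 0.35 in antibiotic and 0.46 in WT tumours, where the median over all genes was 0.02, 0.00 and -0.01. The 3 comparisons share the same normal livers, so they are not independent of each other. All adjusted p-values are from limma fitted to all 18 arrays with Benjamini-Hochberg adjustment over the 9053 genes.

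**Figure D1:**
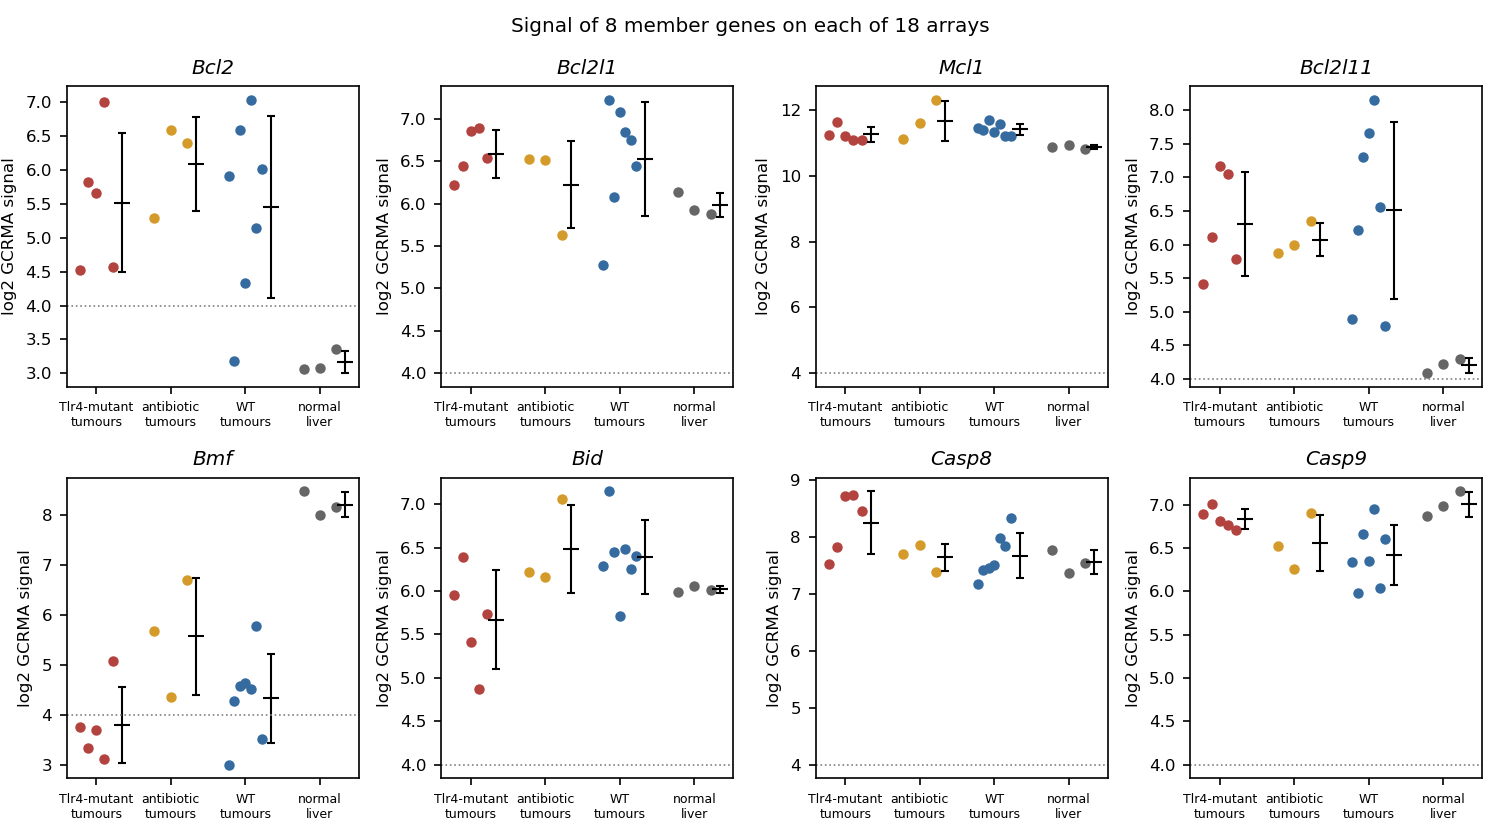
Log2 expression of the representative probe set of each of the 8 tested members. Each point is 1 array, bars are the group mean ± SD, and the dotted line is log2 4. The 3 normal livers lie above every tumour for Bmf, and below every tumour for Mcl1 and Bcl2l11.

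Bmf, whose protein is held at the cytoskeleton in healthy cells and inhibits the survival proteins when released, fell in all 3 tumour groups. Its probe set read 3.75, 3.33, 3.70, 3.11 and 5.07 in mutant tumours. In antibiotic tumours it read 5.67, 4.35 and 6.69. In WT tumours it had 3.002, 4.52 and 5.77 (lowest, median and highest), whereas normal livers had 8.47, 7.99 and 8.15. Every tumour was below every normal liver, and 4 of the 5 mutant and 2 of the 7 WT tumours were below log2 4, where the scale no longer follows the level. In the fit Bmf fell by 4.41 ± 0.57 in mutant tumours (SE, n = 5 against 3, adjusted p = 8.8e-05 by limma), by 2.64 ± 0.64 in antibiotic tumours (n = 3 against 3, adjusted p = 0.0132) and by 3.88 ± 0.54 in WT tumours (n = 7 against 3, adjusted p = 0.000106), all on the log2 scale. With values below log2 4 set to it, Bmf was at least 15.9-fold lower in mutant and at least 12.7-fold lower in WT tumours than in normal livers. The mutant and WT calls were kept whichever array was left out. The antibiotic call was lost without normal liver 1 or antibiotic tumour 29 (adjusted p up to 0.0763). The single Bmf probe set above background (1454880_s_at) is of a type that may match more than 1 transcript, and the other 2 stayed below log2 4 on every array.

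Bcl2, the founding survival gene, read 4.53, 5.83, 5.66, 7.003 and 4.57 in mutant tumours and 5.30, 6.59 and 6.40 in antibiotic tumours. In WT tumours its lowest, median and highest values were 3.18, 5.91 and 7.04. Normal livers had 3.07, 3.07 and 3.35, all below log2 4, so that Bcl2 passed the filter on low values only through the tumours. All mutant and antibiotic tumours were above all normal livers, and WT tumour 17 lay within the range of the normal livers. Taken against log2 4 as the bound for normal liver, Bcl2 was at least 2.87-fold higher in mutant (adjusted p = 0.0302 by limma), at least 4.28-fold higher in antibiotic (adjusted p = 0.0257) and at least 2.75-fold higher in WT tumours (adjusted p = 0.0159). WT tumour 17, lowest for Bcl2, also had the lowest summed signal of the endothelial markers (5.50, against 8.88 for the median WT tumour). The same held for the stellate cell and fibroblast markers (8.15, against 10.67) and the macrophage markers (7.91, against 10.15), all on the log2 scale. The part of these cells in the Bcl2 values was not tested. Both neutrophil markers tested rose in mutant and WT tumours, as given above. Neither passed in antibiotic tumours, where Bcl2 averaged 6.10. Mutant tumours 23 and 27 had the highest summed neutrophil signal of all arrays (9.25 and 8.78) and the lowest Bcl2 of the mutant tumours (4.53 and 4.57). Other arrays went the other way. WT tumour 17, the tumour with the lowest Bcl2, had the lowest neutrophil signal of the WT tumours (5.09). Normal livers, all below log2 4 for Bcl2, had the lowest neutrophil signals of all arrays (4.42 to 4.599). The part of blood cells in the Bcl2 values was not tested either.

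The Bcl2 calls depended on single arrays. The WT call was lost without normal liver 1 or 2 (adjusted p up to 0.0559), the mutant call without any 1 normal liver or mutant tumour 24, 25 or 26 (up to 0.0929), and the antibiotic call without any 1 normal liver or antibiotic tumour 29 or 30 (up to 0.0961). Without WT tumours 17 and 19 together the WT call was kept (adjusted p = 0.00112). A second Bcl2 probe set that passed the filter, 1440770_at, was also below log2 4 in all normal livers. It was at least 1.28-fold higher in WT tumours (adjusted p = 0.0350 over all kept probe sets, of which 39.9% passed), and it did not pass in mutant (adjusted p = 0.139) or antibiotic tumours (adjusted p = 0.0514).

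Mcl1, a short-lived survival protein on which mouse hepatocytes depend, was raised by a small amount. It read 11.23, 11.65, 11.21, 11.10 and 11.08 in mutant tumours, 11.10, 11.59 and 12.31 in antibiotic tumours, and 11.21, 11.39 and 11.68 (lowest, median and highest) in WT tumours. Normal livers had 10.86, 10.93 and 10.82, below every tumour. The rise was 0.80 ± 0.23 in antibiotic tumours (log2, SE, n = 3 against 3, adjusted p = 0.0307 by limma) and 0.54 ± 0.20 in WT tumours (n = 7 against 3, adjusted p = 0.0390). The difference of 0.38 ± 0.21 in mutant tumours (n = 5 against 3) did not pass (adjusted p = 0.190), with a 95% interval from -0.06 to 0.82. All 6 Mcl1 probe sets had a positive difference in each tumour group. Between antibiotic tumours and normal liver these differences lay between 0.57 and 1.11, and 4 of the 6 passed (18.4% of all probe sets did). Between WT tumours and normal liver they lay between 0.27 and 0.75 and 3 passed (39.9% of all probe sets did). Between mutant tumours and normal liver they lay between 0.03 and 0.52 and 0 passed (24.3% of all probe sets did). Antibiotic tumour 30 was the highest of all arrays on every Mcl1 probe set, and without it the antibiotic difference was 0.48 and did not pass (the highest adjusted p over single arrays left out was 0.108). The antibiotic call was also lost without any 1 normal liver or antibiotic tumour 29. In WT tumours the call did not hold without any 1 normal liver, nor without WT tumour 16, 18 or 20 (adjusted p up to 0.114), nor without WT tumours 17 and 19 together (0.0590).

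**Figure D2:**
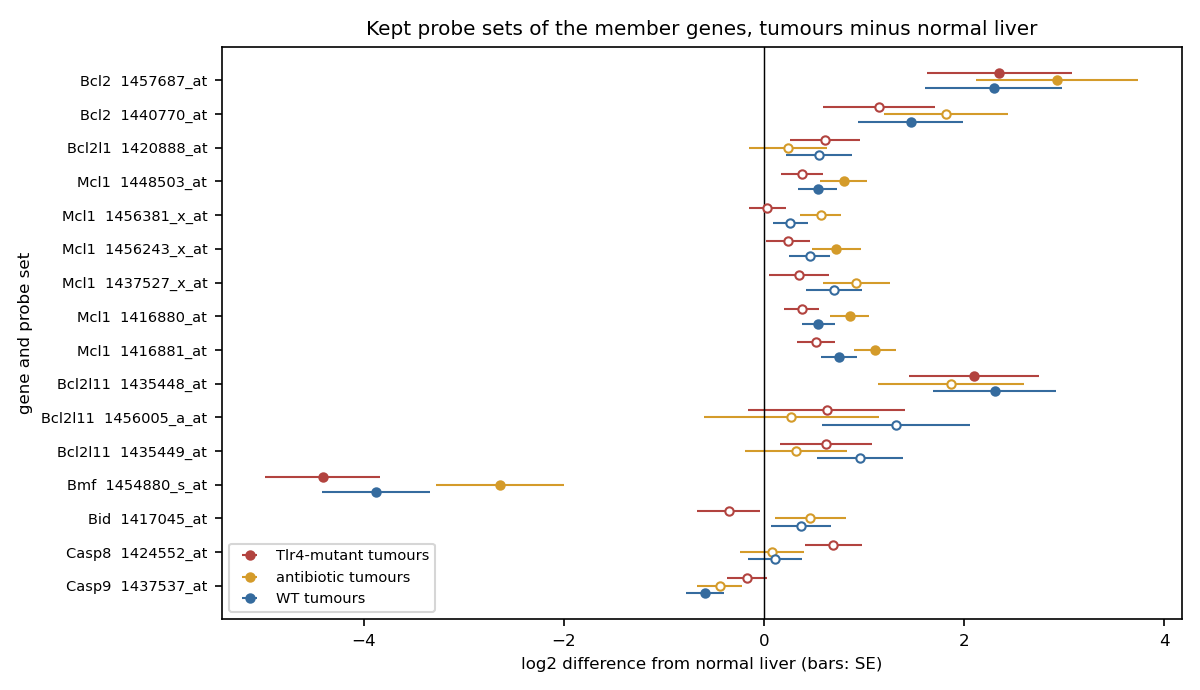
Log2 difference between each tumour group and normal liver for the 16 member probe sets that passed the filter, by gene, with bars of 1 SE. Filled points passed an adjusted p of 0.05 over all kept probe sets. The 6 Mcl1 probe sets all lie above 0, and those of Bcl2, and of Bcl2l11 other than 1435448_at, are set against normal livers below log2 4.

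Bcl2l11, which encodes BIM, a BH3-only protein that binds all the survival proteins, read 5.41, 6.11, 7.17, 7.05 and 5.79 in mutant tumours. It read 5.88, 5.998 and 6.35 in antibiotic tumours, and 4.78, 6.57 and 8.16 (lowest, median and highest) in WT tumours. Normal livers had 4.09, 4.22 and 4.30, close to background and below every tumour. The rise was 2.10 ± 0.66 in mutant tumours (log2, SE, n = 5 against 3, adjusted p = 0.0311 by limma) and 2.31 ± 0.62 in WT tumours (n = 7 against 3, adjusted p = 0.00866). The antibiotic tumours differed by 1.87 ± 0.73 (n = 3 against 3), which did not pass (adjusted p = 0.0919), although with only those 2 groups fitted the adjusted p was 0.00613. The WT call was kept whichever single array was left out, and the mutant call was lost without any 1 normal liver or mutant tumour 25 or 26 (up to 0.0975). The other 2 that passed the filter, 1456005_a_at and 1435449_at, were below log2 4 in all normal livers and did not pass in any tumour group. The first was above log2 4 in 2 of 5 mutant, 1 of 3 antibiotic and 5 of 7 WT tumours, and the second in 3 WT tumours only, so the size of their differences was not measured. With the mean of the probe sets as the gene's value, the mutant difference was 1.12 (adjusted p = 0.202), a value that takes in these signals below background.

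Bid, the BH3-only protein that links death receptors to mitochondria, did not pass in any tumour group. It read 5.95, 6.39, 5.41, 4.87 and 5.73 in mutant tumours, 6.22, 6.17 and 7.07 in antibiotic tumours, and 5.71, 6.40 and 7.15 (lowest, median and highest) in WT tumours. Normal livers had 5.98, 6.06 and 6.01. Only the 3 antibiotic tumours lay clear of the normal livers, above them, by 0.46 ± 0.35 (n = 3 against 3, adjusted p = 0.385 by limma). The mutant tumours differed by -0.35 ± 0.32 (n = 5 against 3, adjusted p = 0.440). Of 3 Bid probe sets 1 passed the filter (1417045_at), and the others stayed below log2 4 on every array.

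Bcl2l1 read 6.22, 6.45, 6.86, 6.89 and 6.54 in mutant tumours, 6.53, 6.51 and 5.64 in antibiotic tumours, and 5.28, 6.76 and 7.23 (lowest, median and highest) in WT tumours. Normal livers had 6.14, 5.93 and 5.88. The mutant tumours lay above all normal livers, while 1 antibiotic and 1 WT tumour lay below them. The differences were 0.61 ± 0.35 in mutant (adjusted p = 0.219 by limma, n = 5 against 3), 0.24 ± 0.39 in antibiotic (adjusted p = 0.702, n = 3 against 3) and 0.55 ± 0.33 in WT tumours (adjusted p = 0.199, n = 7 against 3). Leaving out WT tumour 16, the lowest, gave 0.76 in WT tumours, which passed (adjusted p = 0.0272). Of 4 Bcl2l1 probe sets 1 passed the filter (1420888_at), and the others stayed below log2 4 on every array.

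Of the initiator caspases, Casp9 fell in WT tumours. It read 6.90, 7.003, 6.81, 6.76 and 6.71 in mutant tumours, 6.52, 6.26 and 6.90 in antibiotic tumours, and 5.98, 6.35 and 6.94 (lowest, median and highest) in WT tumours, whereas normal livers had 6.86, 6.99 and 7.15. It fell by 0.59 ± 0.19 in WT tumours (log2, SE, n = 7 against 3, adjusted p = 0.0211 by limma), a call lost without normal liver 2 or 3 (up to 0.0962) and without WT tumours 17 and 19 together (0.0523). The differences of -0.17 ± 0.20 in mutant (adjusted p = 0.57, n = 5 against 3) and -0.44 ± 0.22 in antibiotic tumours (adjusted p = 0.177, n = 3 against 3) did not pass. In all 3 tumour groups the Casp9 ranges overlapped those of normal liver. Of 3 Casp9 probe sets 1 passed the filter (1437537_at), so the fall rests on that probe set.

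Casp8 read 7.52, 7.82, 8.70, 8.74 and 8.45 in mutant tumours, 7.69, 7.84 and 7.38 in antibiotic tumours, and 7.18, 7.51 and 8.32 (lowest, median and highest) in WT tumours. Normal livers had 7.77, 7.36 and 7.53. The 3 highest of all 18 arrays were mutant tumours 25, 26 and 27. The mutant difference of 0.69 ± 0.29 (log2, SE, n = 5 against 3) did not pass (adjusted p = 0.0905 by limma), and without mutant tumour 23 it was 0.88 and did (adjusted p = 0.0268). The differences of 0.08 ± 0.32 in antibiotic (adjusted p = 0.884, n = 3 against 3) and 0.11 ± 0.27 in WT tumours (adjusted p = 0.760, n = 7 against 3) did not pass.

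**Figure D3:**
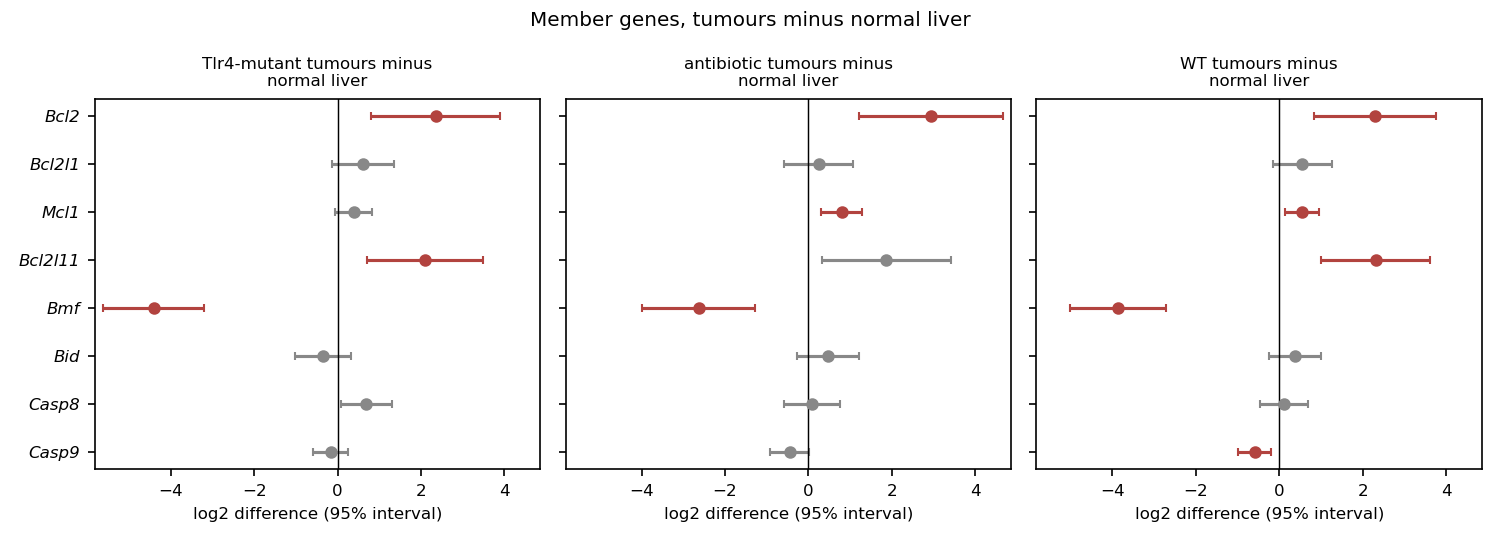
Log2 difference between each tumour group and normal liver for the 8 tested members, with 95% intervals from the limma fit and members that passed an adjusted p of 0.05 in red. Bcl2 was below log2 4 in all normal livers, so its differences are fitted values and not measured sizes. The intervals of Bmf lie wholly below 0, and those of Bcl2l11 and Bcl2 wholly above 0, in all 3 groups, although Bcl2l11 did not pass in antibiotic tumours.

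Counted by the ranges of the arrays, 5 of the 8 members lay clear of normal liver in mutant tumours (39.0% of all genes did), 5 in antibiotic tumours (42.3%) and 3 in WT tumours (38.4%). Bcl2l11, Mcl1 and Bmf did so in all 3 groups. With 8 genes, each of these shares rests on a few of them. The counts in mutant and antibiotic tumours include Bcl2, which passed the filter only through the tumours.

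Between the tumour groups no member changed at an adjusted p under 0.05 by limma. Mutant against WT tumours gave 0 of 8 (0.265% of all genes passed), antibiotic against WT tumours 0 of 8 (0.0884%) and mutant against antibiotic tumours 0 of 8 (0.232%). At an unadjusted p under 0.05 the counts were 3, 1 and 3 of the 8, where 16.7%, 15.5% and 10.3% of all genes passed. The ranges overlapped for every member in all 3 comparisons, where 1.61%, 4.04% and 5.71% of all genes did not overlap.

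Bid, Casp9 and Casp8 were the members with the smallest p between mutant and WT tumours. Bid averaged 5.67 ± 0.57 in mutant and 6.39 ± 0.42 in WT tumours (log2, SD, n = 5 and 7), a difference of -0.72 with a 95% interval from -1.26 to -0.19 (adjusted p = 0.207 by limma). Casp8 averaged 8.25 ± 0.55 in mutant and 7.67 ± 0.39 in WT tumours, a difference of 0.58 (0.09 to 1.06, adjusted p = 0.237 by limma, n = 5 and 7). Casp9 averaged 6.84 ± 0.12 in mutant and 6.41 ± 0.35 in WT tumours, a difference of 0.42 (0.09 to 0.76, adjusted p = 0.224 by limma, n = 5 and 7). For Casp9 all 5 mutant tumours were at 6.71 or above, as was 1 of the 7 WT tumours, tumour 20. For the other 5 members the interval of the difference included 0. It was widest for Bcl2 (-1.18 to 1.30) and narrowest for Mcl1 (-0.51 to 0.20), so a difference of about 2-fold in Bcl2 could not be told from none with these arrays.

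Bmf was the member with the smallest p in both comparisons that involve antibiotic tumours. It averaged 5.57 ± 1.17 in antibiotic and 4.33 ± 0.88 in WT tumours (log2, SD, n = 3 and 7), a difference of 1.24 (0.09 to 2.39, adjusted p = 0.291 by limma). Against the antibiotic tumours the mutant tumours, at 3.79 ± 0.76 (n = 5), differed by -1.77 (-2.99 to -0.56, adjusted p = 0.294 by limma), with 4 of the 5 below log2 4. Antibiotic tumour 30 held the highest tumour value of Bmf, and antibiotic tumours 28 and 29 (5.67 and 4.35) lay within the range of the WT tumours. Tumour 30 also had the lowest summed signal of Afp and Gpc3 among the tumours (log2 10.91). Its summed signal of bile duct cell markers was the highest of all arrays (8.33). The part of these traits in its Bmf and Mcl1 values was not tested. The antibiotic group itself spanned more than 2 log2 units. Bid (-0.81, adjusted p = 0.387) and Casp8 (0.61, adjusted p = 0.482) had the next smallest p between mutant and antibiotic tumours.

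**Figure D4:**
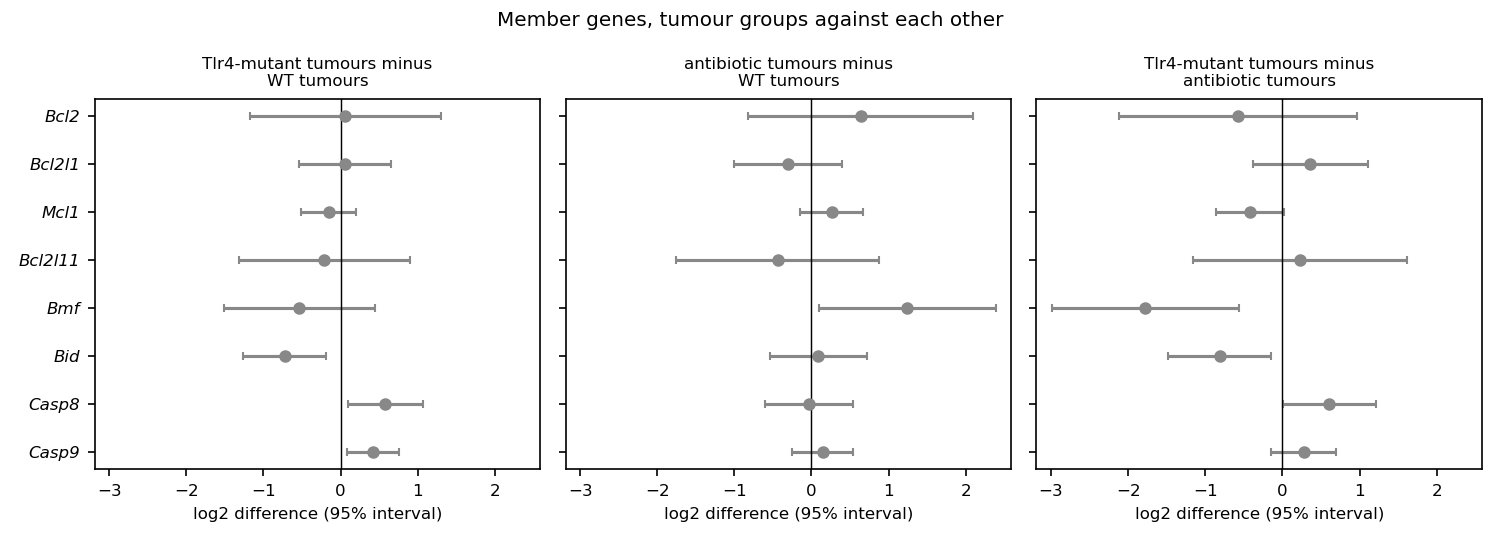
Log2 differences between tumour groups for the 8 tested members, with 95% intervals from the limma fit. No difference passed an adjusted p of 0.05, and the intervals of Bid, Casp8 and Casp9 between mutant and WT tumours exclude 0 without that adjustment.

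The members differed in how much they varied within groups. The pooled standard deviation within groups was 1.07 for Bcl2, 0.96 for Bcl2l11 and 0.84 for Bmf, which placed them at percentiles 94.6, 92.9 and 90.7 among all genes tested, whose median was 0.31. Mcl1 (percentile 44.0) and Casp9 (39.4) varied as much as a typical gene, and Bcl2l1, Bid and Casp8 lay between percentiles 67.6 and 76.8. Across the 15 tumours Bcl2 spanned 3.87, Bmf 3.68 and Bcl2l11 3.37 log2 units, and Casp9 spanned 1.03. For Bcl2 and Bmf these values include arrays below log2 4.

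The genes whose values followed each member most closely over the 15 tumours, after subtraction of the group means, were taken from the other 9052 genes tested. They were Nipsnap2 and F11r for Bcl2 (Pearson's r of 0.90 and 0.89), Fndc10 and Grina for Bcl2l1 (0.90 and 0.88), and Slc25a4 and Armc10 for Mcl1 (0.91 and 0.90). They were Tbc1d15 and Atpif1 for Bcl2l11 (0.87 and 0.85), Chkb and Mia3 for Bmf (both 0.85), and Tmem141 and Zc3hc1 for Bid (0.87 and 0.85). Mthfd1l and Fam169b followed Casp8 (both 0.93), and Akap7 and Vrk1 followed Casp9 (0.83 and 0.77). These are the highest of many values over arrays that share their samples, and they are given as a description without a test.

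A list of 45 other genes of cell death was read beside the members. It held 37 genes with probe sets, of which 30 were tested. Apaf1, Casp12, Casp4, Birc5, Bbc3 and Dffb had no normal liver above log2 4 and, like Bcl2 among the members, passed the filter only through the tumours where they were high, so their calls are a description and no support. In WT tumours 9 of the 30 rose and 8 fell, beside the 39.0% of all genes that changed there. In mutant tumours 6 rose and 6 fell (22.3% of all genes changed), and in antibiotic tumours 3 rose and 2 fell (15.0%). The median log2 difference of the list was 0.04 in mutant, 0.05 in antibiotic and -0.04 in WT tumours. With groups below background set to log2 4 it was 0.01, 0.00 and -0.04.

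Apaf1, the scaffold on which caspase 9 is activated, was the listed gene with the smallest p in WT and mutant tumours. It was below log2 4 in all normal livers, and was at least 2.93-fold higher in mutant (adjusted p = 0.00355 by limma), at least 3.73-fold higher in antibiotic (adjusted p = 0.00394) and at least 4.91-fold higher in WT tumours (adjusted p = 0.000110). Casp12, a caspase of the inflammatory group that was also below log2 4 in normal livers, was at least 4.73-fold higher in mutant (adjusted p = 0.00431 by limma), at least 15.6-fold higher in antibiotic (adjusted p = 0.000704) and at least 11.7-fold higher in WT tumours (adjusted p = 0.000117). Casp1, which activates interleukin 1 beta, averaged 6.07 ± 0.70 in mutant, 6.77 ± 1.54 in antibiotic and 7.28 ± 0.60 in WT tumours, against 4.36 ± 0.20 in normal livers (log2, SD, n = 5, 3, 7 and 3). It rose in all 3 tumour groups, by 1.71 in mutant (adjusted p = 0.0347 by limma), by 2.41 in antibiotic (adjusted p = 0.0164 by limma) and by 2.92 in WT tumours (adjusted p = 0.000663). The antibiotic call for Casp1 was lost without normal liver 1 or 2 or antibiotic tumour 29 or 30 (up to 0.0698), and with only those 2 groups fitted (0.0825). Against normal liver the neutrophil markers also rose in mutant and WT tumours, a macrophage marker in WT tumours and Jchain in mutant tumours. Among the tumour groups the mean of Casp1 was lowest in mutant tumours. There S100a8 (7.25, against 4.85 in antibiotic and 5.35 in WT tumours) and Jchain (7.36, against 4.46 and 5.38) had their highest means. The macrophage markers did not move together. Cd68 (3.11, against 4.11 and 4.37) and Adgre1 (5.06, against 5.48 and 5.39) had their lowest means there, Cd68 below log2 4 in every mutant tumour. Clec4f (6.20, against 5.59 and 5.12) and Vsig4 (8.30, against 7.48 and 7.05) had their highest means there. In mutant tumours Csf1r and C1qa lay between the other groups. The part of these cells in the Casp1 values was not tested. Birc5, a mitotic protein of the inhibitor of apoptosis family, was at least 4.75-fold higher in WT tumours (adjusted p = 0.00188 by limma) than in normal livers, which were all below log2 4. All 3 proliferation markers measured also rose in WT tumours, where their summed log2 signal ranged from 5.93 to 9.30, against 4.17 to 4.27 in normal livers. Like Birc5, these markers were below log2 4 in all normal livers and passed the filter only through the tumours. Their calls are a description and no support, and their part in the Birc5 difference was not tested.

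Dffa, which holds the apoptotic nuclease in check, fell in all 3 tumour groups, by 0.66 in mutant (adjusted p = 0.0108 by limma), by 0.77 in antibiotic (adjusted p = 0.0123) and by 0.78 in WT tumours (adjusted p = 0.00144). The mutant call was lost without normal liver 2 (0.0737), and the antibiotic call without normal liver 2 or antibiotic tumour 29 (up to 0.0701) and with only those 2 groups fitted (0.0730). Bik, a BH3-only gene, was below log2 4 in all WT tumours and at least 2.65-fold lower there than in normal liver (adjusted p = 0.000964 by limma). Tradd, the adaptor of TNF receptor 1, fell by 0.98 in antibiotic tumours (adjusted p = 0.0255 by limma), a call lost without any 1 normal liver or antibiotic tumour 29 (up to 0.0944). In mutant tumours Tnfrsf1a, which encodes that receptor, rose by 0.96 (adjusted p = 0.00547 by limma), and Cycs, which encodes cytochrome c, fell by 0.52 (adjusted p = 0.00986). Tnfsf10, which encodes the death ligand TRAIL, fell by 1.52 in mutant tumours (adjusted p = 0.0130 by limma). Without normal liver 1 the mutant calls of Cycs and Tnfsf10 were lost (0.0561 and 0.0706). In WT tumours Tnfrsf1a rose as well, by 0.76 (adjusted p = 0.00779 by limma), and Cycs, Tnfsf10 and Tradd fell, by 0.41 (0.0150), 1.38 (0.00912) and 0.90 (0.00642). Bik also fell in mutant tumours (adjusted p = 0.0135 by limma), at a mean below log2 4.

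**Figure D5:**
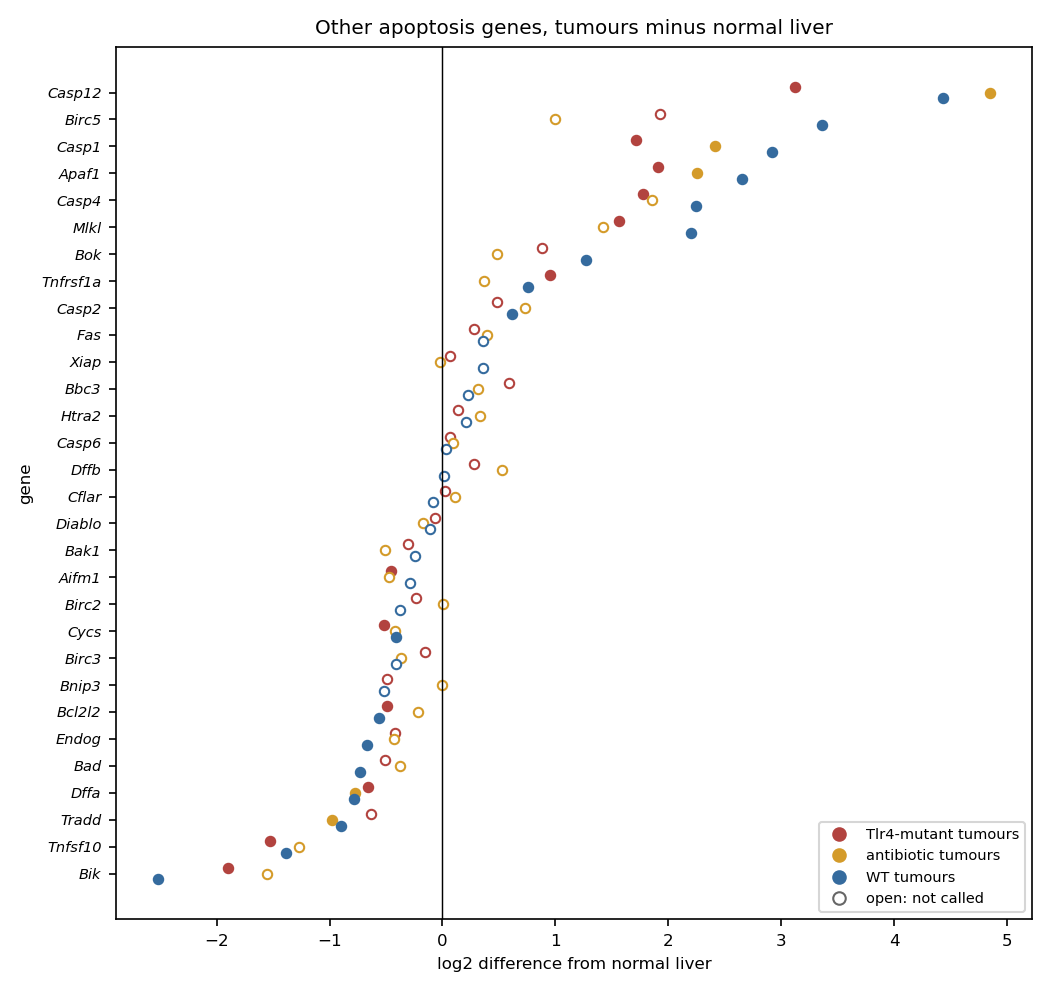
Log2 difference between each tumour group and normal liver for the 30 tested genes of the cell death list, ordered by the difference of the WT tumours. Filled points passed an adjusted p of 0.05 by limma, and where a group lay wholly below log2 4 (Apaf1 and Casp12 in normal liver, for example) the position is a fitted value. Apaf1 and Casp12 lie to the right of 0 and Dffa to the left in all 3 tumour groups.

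No gene of the list passed between tumour groups. Of the 30 genes, 5 had an unadjusted p under 0.05 in mutant against WT tumours, 5 in antibiotic against WT tumours and 2 in mutant against antibiotic tumours, where 16.7%, 15.5% and 10.3% of all genes did. Casp1 averaged 6.07 ± 0.70 in mutant and 7.28 ± 0.60 in WT tumours (n = 5 and 7), a difference of -1.21 (adjusted p = 0.214 by limma). Xiap, which inhibits caspase 9 directly, averaged 11.00 ± 0.09 in mutant and 11.29 ± 0.24 in WT tumours (n = 5 and 7, adjusted p = 0.245 by limma), with every mutant tumour below every WT tumour. Birc5 averaged 3.88 ± 0.59 in antibiotic and 6.25 ± 1.35 in WT tumours (n = 3 and 7, adjusted p = 0.177 by limma). Dffb, which encodes the nuclease that Dffa restrains, averaged 4.16 ± 0.07 in antibiotic tumours (n = 3) and was below log2 4 in all 7 WT tumours (at least 1.11-fold higher, adjusted p = 0.206 by limma). Between mutant and antibiotic tumours Tnfrsf1a differed by 0.59 (adjusted p = 0.345 by limma) and Casp12 by -1.73 (adjusted p = 0.387).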

How the data were processed

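Expression was measured in 18 samples, 1 array each. The values are log2 signals that the authors deposited after GCRMA background correction and summarisation per probe set, per the submitters' processing notes, which give no version. Arrays have no read depth, so signal over background and the number of arrays limit precision.

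Groups were taken from the labels. Symbols came from the platform annotation, in which 34958 probe sets list 1 gene. Of 45101 probe sets, 64 controls were left out and 16663 exceeded log2 4 on at least 3 arrays. This gave 9053 genes, and where several kept probe sets shared a gene, the one with the highest mean over all arrays stood for it. A group with all arrays below log2 4 was set to log2 4 for an "at least" fold. The 4 group means were estimated in 1 limma model over all arrays (limma 3.58.1, R 4.3.3), with variances moderated by eBayes. Tests were two-sided and adjusted by Benjamini-Hochberg over all genes, with a threshold of 0.05. The fit was tested on simulated data. Figures used python 3.11.15 and matplotlib 3.10.9.

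The members and lists were chosen with earlier results of these data known. All members and their probe sets were named. From the cell death list, the 6 genes of smallest p among those that passed were named for each comparison, or the 2 of smallest p where none passed, and for each member the 2 genes most like it. Alternatives were other filters, probe set rules, scalings, variance settings and sets of samples.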

Additional observations from a re-analysis of the deposited data

Results flagged for a closer look

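Among 60 sets of values (a probe set in a group of 4 to 10 arrays), 3 had 1 array far from the others of its group by Dixon's criterion, which is 5%, and chance alone flags about 1 in 20. Mcl1 probe set 1448503_at read 11.65 in mutant tumour 24, where the next highest mutant tumour had 11.23. The other 2 were Bcl2l1 probe sets below background: 1426050_at read 2.18 in mutant tumour 24 against 1.85 for the next highest, and 1420887_a_at read 2.22 in mutant tumour 26 against 2.34 for the next lowest.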

How the results depend on the processing

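No paired analysis was possible because the groups share no replicate numbers. With 1 array left out at a time, the members that changed against normal liver numbered 1 to 4 in mutant, 0 to 3 in antibiotic and 2 to 5 in WT tumours, and the listed cell death genes 5 to 12, 2 to 9 and 11 to 18. Between tumour groups no member and no listed gene passed under any alternative. With each gene's probe sets averaged, 1 member changed in mutant tumours, and with array weights 7 did. Without WT tumours 17 and 19, and also with a minimum change of 2-fold, 3 members changed in WT tumours. Leaving out probe sets that may match several transcripts left Bmf untested and 23 of the 30 listed genes tested, and 11 of these 23 changed in WT tumours. With the 2-fold minimum, 9 of the 30 listed genes changed in WT and 7 in mutant tumours. In antibiotic tumours the listed genes that changed were 8 with array weights and without WT tumours 17 and 19. They were 3 with only the 2 groups fitted and with the 2-fold minimum. Mcl1 did not pass in WT tumours without the filter (adjusted p = 0.0525 by limma) or with centred arrays (0.0558), nor in antibiotic tumours with only the 2 groups fitted (0.133). With averaged probe sets Bcl2 did not pass in mutant tumours (0.0518). With array weights Bcl2l1 (0.00814), Mcl1 (0.0295), Bid (0.0381) and Casp8 (0.000974) passed in mutant tumours and Bcl2l1 in WT tumours (0.0490). With only the 2 groups fitted Bcl2l1 passed in mutant (0.0316) and Bcl2l11 in antibiotic tumours (0.00613). The causes were not tested.

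Some differences that had not passed changed sign. Between mutant and WT tumours Bcl2 was -0.13 with the mean of its probe sets, -0.020 with array weights and -0.62 without WT tumours 17 and 19, and Bcl2l11 was 0.20 with array weights. Between antibiotic and WT tumours Bid was -0.022 with array weights and Bcl2 -0.046 without WT tumours 17 and 19. With 1 array left out, the mutant minus WT difference ranged from -0.32 to 0.32 for Bcl2, -0.15 to 0.17 for Bcl2l1 and -0.50 to 0.065 for Bcl2l11. The antibiotic minus WT difference ranged from -0.062 to 0.54 for Mcl1, -0.20 to 0.25 for Bid, -0.13 to 0.10 for Casp8 and -0.025 to 0.29 for Casp9, and the antibiotic minus normal liver difference of Casp8 from -0.018 to 0.21.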

Other observations

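The 3 Bcl2 probe sets that did not pass the filter were read as values only. Probe set 1437122_at read 2.89, 3.02, 3.41, 3.97 and 3.03 in mutant tumours, 3.27, 3.72 and 4.15 in antibiotic tumours, and 2.52, 3.33 and 3.72 (lowest, median and highest) in WT tumours. Normal livers had 2.65, 2.63 and 2.50. All 8 mutant and antibiotic tumours were above the 3 normal livers and WT tumour 17 was within their range, on a scale that is almost wholly below log2 4. Probe set 1422938_at stayed between 1.78 and 2.40 on all 18 arrays. Probe set 1443837_x_at averaged 3.03 in mutant, 3.14 in antibiotic and 2.92 in WT tumours, against 2.15 in normal livers, below log2 4 on every array.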
